A study of Mus musculus with 12 samples.

Results

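The metallothioneins Mt1, Mt2 and Mt3 and the zinc transporters Slc30a1 and Slc39a14 were followed in mouse cortical tissue taken 2 hr after CCI (controlled cortical impact), a model of head injury made by a blow to the brain surface. The 5 genes were taken by symbol from the 55487 genes of the deposited tables, a choice made with earlier results of these data known, and all 5 passed the filter on low counts. RNA came from the injured side (ipsilateral) or the opposite side (contralateral) of 2 genotypes, with 3 libraries in each of the 4 groups. The groups were ipsilateral and contralateral cortex of CX3CR1cre-er/+ STING fl/fl animals, called cKO here, and ipsilateral and contralateral cortex of CX3CR1cre-er/+ animals, called wt.

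Every animal in the set received CCI and carried the Cx3cr1 Cre allele, so wt names animals with Cre and no floxed allele on the label, and contralateral cortex belongs to injured animals. Cx3cr1 drives expression in microglia and in circulating monocytes, and STING, the adaptor that reports DNA in the cytosol, was the gene to be deleted there. The sample labels give cKO animals the inducible Cre allele, whereas the series design text names CX3CR1cre/+ for them, and neither mentions tamoxifen. The labels do not say which libraries came from separate animals, so the p-values below measure the spread between these libraries, which may in part be technical.

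Metallothioneins are small cysteine-rich proteins that bind zinc and copper, buffer the free zinc of a cell and take up oxidants. Free zinc activates the transcription factor MTF-1, which binds metal response elements in front of Mt1, Mt2 and Slc30a1 in the mouse. Glucocorticoids and cytokines of the interleukin-6 family also raise Mt1 and Mt2, which in the brain are best known from astrocytes. Mt3 is made mainly in the brain, in neurons and astrocytes, and answers metals less. Slc30a1 (ZnT1) exports zinc across the plasma membrane, and Slc39a14 (ZIP14) brings zinc, manganese and iron into cells and is known in mouse liver as an acute-phase gene.

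Mt3, Mt2 and Mt1 lie in this order on the plus strand of chromosome 8 (mm10, GENCODE M21 annotation), at chr8:94152607-94154146, chr8:94172664-94173568 and chr8:94179082-94180327. Slc30a1 lies at chr1:191906767-191913247 on the plus strand and Slc39a14 at chr14:70303469-70351425 on the minus strand. The antisense gene Gm45774 overlaps Mt2, and 1700034H15Rik overlaps Slc30a1. The counting's use of strand is not given in the sources used here, so reads of these pairs may not have been kept apart. Levels are given in CPM, which scales the counts to the size of the library, or, to compare genes, in TPM, which also corrects for gene length. Gm45774 held 0.724 to 5.12 CPM and 1700034H15Rik 1.55 to 2.38 CPM across the 12 libraries.

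The promoters are shown because metal response elements are the known control elements of this family. RefSeq (GRCm38.p6) gave a sequence for 4 of the 5 members, 250 bases before and 50 bases after the gene start, 5′ to 3′ on the plus strand, with metal response elements in capitals. This gene start is that of RefSeq, which for Mt1, Mt2 and Slc30a1 is not the GENCODE start given above. The Mt2 window ends at 94172667, just past the GENCODE start at 94172664. The windows are chr8:94178839-94179138 for Mt1, chr8:94172368-94172667 for Mt2, chr8:94152357-94152656 for Mt3 and chr1:191906531-191906830 for Slc30a1.
Mt1: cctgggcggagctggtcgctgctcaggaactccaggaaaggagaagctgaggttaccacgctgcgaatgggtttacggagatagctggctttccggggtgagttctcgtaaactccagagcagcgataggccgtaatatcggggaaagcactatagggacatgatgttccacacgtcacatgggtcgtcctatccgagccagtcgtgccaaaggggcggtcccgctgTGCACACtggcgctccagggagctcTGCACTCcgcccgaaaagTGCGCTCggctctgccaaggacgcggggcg
Mt2: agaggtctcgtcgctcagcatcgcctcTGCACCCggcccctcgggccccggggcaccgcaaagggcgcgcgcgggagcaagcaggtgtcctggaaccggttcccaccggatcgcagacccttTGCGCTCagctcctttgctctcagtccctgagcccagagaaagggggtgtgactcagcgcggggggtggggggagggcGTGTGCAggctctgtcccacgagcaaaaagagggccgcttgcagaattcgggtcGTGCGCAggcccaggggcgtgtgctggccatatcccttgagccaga
Mt3: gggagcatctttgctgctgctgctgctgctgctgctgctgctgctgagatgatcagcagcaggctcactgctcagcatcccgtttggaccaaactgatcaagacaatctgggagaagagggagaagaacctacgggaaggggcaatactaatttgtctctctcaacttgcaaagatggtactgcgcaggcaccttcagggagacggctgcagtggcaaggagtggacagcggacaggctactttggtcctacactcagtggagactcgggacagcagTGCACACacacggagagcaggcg
Slc30a1: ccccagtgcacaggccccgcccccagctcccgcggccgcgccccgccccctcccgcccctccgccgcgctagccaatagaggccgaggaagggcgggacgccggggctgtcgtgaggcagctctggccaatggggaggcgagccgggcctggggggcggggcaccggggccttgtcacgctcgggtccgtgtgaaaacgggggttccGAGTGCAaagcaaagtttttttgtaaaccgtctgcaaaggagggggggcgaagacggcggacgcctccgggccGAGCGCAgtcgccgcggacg

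The element was searched as TGCACNC or TGCGCNC on both strands, and capitals that do not read so are matches on the minus strand. Mt2 held 4 matches, Mt1 3, Slc30a1 2 and Mt3 1. Among 32851 RefSeq promoters of the same length, 25.7% held at least 1 match, 7.11% at least 2, 1.97% at least 3 and 0.517% at least 4. An antioxidant response element, TGACNNNGC on either strand, occurred once in the windows of Mt2 and Slc30a1, and in 12.4% of all promoters. A STAT site (TTCNNNGAA, 8.3% of promoters) and a full glucocorticoid response element (0.0639% of promoters) had no match in these 4 windows. These are matches of letters within windows set by 1 gene start, and binding was not measured. The metal response elements of Mt1 lay at −23, 3 and 21 bases from that start. Sequence past the windows was not searched, so any further elements there would be missed.

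The libraries held 7958931 (cKO ipsilateral 3) to 33567194 estimated counts, and 16836 genes were tested. cKO ipsilateral library 3 stood apart on the second principal component. It also held 10548 TPM of Bc1, a short neuronal RNA, against 83028 to 167036 TPM in the other libraries, and TPM sum to a fixed total in each library. Tmem173, the gene of STING, stood at 1.05, 2.44 and 1.24 CPM in cKO ipsilateral libraries, against 2.34, 3.69 and 2.72 CPM in wt ipsilateral libraries. On the contralateral side it stood at 0.998, 1.96 and 0.762 CPM in cKO, against 2.49, 2.63 and 3.18 CPM in wt libraries. These values overlapped between genotypes on the ipsilateral side (two-sided exact permutation p = 0.2) and did not on the contralateral side (p = 0.1, the smallest that 3 against 3 libraries can give).

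Per length, the metallothioneins were far above both transporters. The mean over the 12 libraries was 637 TPM for Mt3, 603 TPM for Mt1 and 404 TPM for Mt2, which rank 143, 154 and 271 among all genes. Slc39a14 averaged 11.2 TPM and Slc30a1 9.85 TPM, at ranks 8140 and 8589. Mt4, the metallothionein of stratified epithelia, had a count of 0 in all 12 libraries, where 3 counts would be 0.0894 to 0.377 CPM. Counts behind the values below were 222 to 4931 per member and library.

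Mt1 and Mt2 rose on the injured side in cKO cortex, by 1.58-fold and 1.73-fold, and Mt1 rose by 1.39-fold in wt cortex. Mt2 in wt cortex lay at 1.32 times the contralateral level and just missed the threshold. Mt3, Slc30a1 and Slc39a14 passed the test in neither genotype. In cKO cortex 2 of 5 members were called higher, where 2.56% of all genes tested were, and in wt cortex 1 of 5, where 2.73% were. None was called lower, where 0.178% of genes were in cKO and 0.184% in wt cortex (2.74% and 2.92% in either direction). The median log2 fold change of the 5 members was 0.35 in cKO and 0.30 in wt cortex, and that of all genes tested was −0.01 in both. A call means a p under 0.05 by edgeR's quasi-likelihood test after Benjamini-Hochberg adjustment over all genes tested, and CPM is scaled by the trimmed mean of M values. RNA from whole tissue cannot tell more cells of a type from more RNA per cell.

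**Figure D1:**
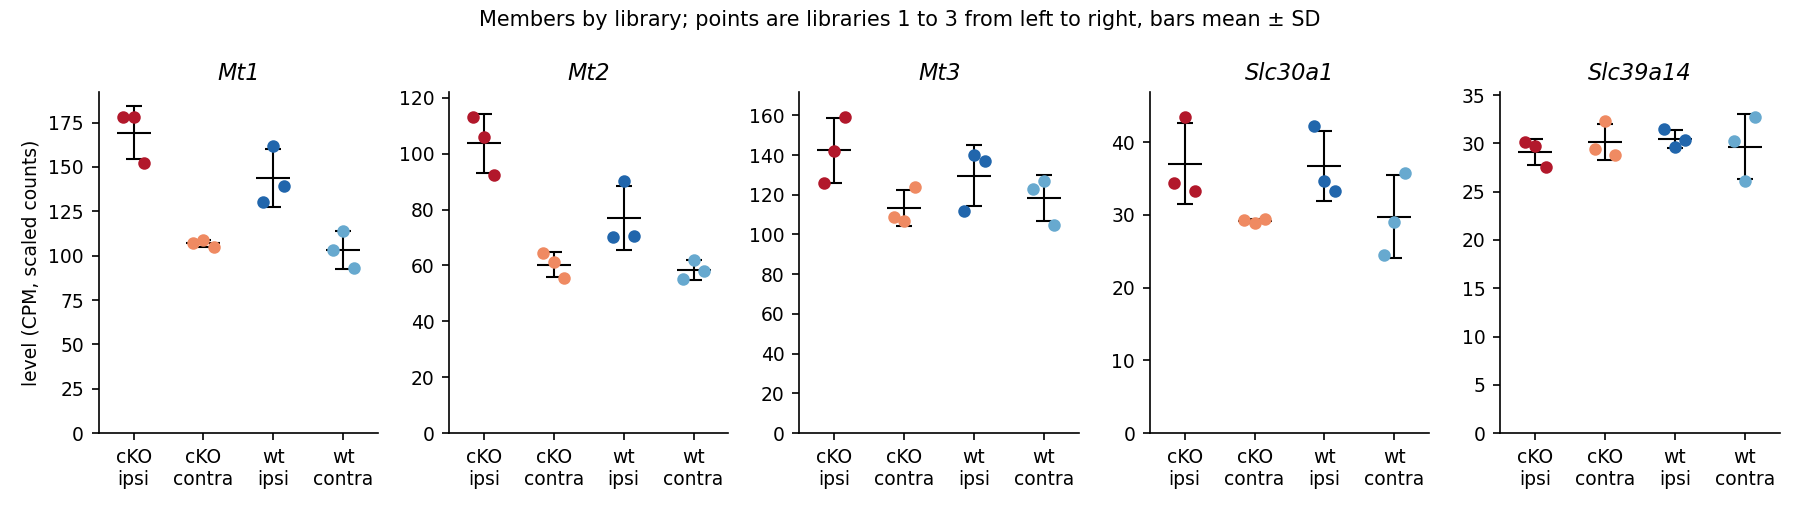
Level of each member (CPM, linear axis from 0) in every library; points are libraries 1 to 3 from left to right in each group, and black bars give the mean ± SD of 3 libraries. Mt1 and Mt2 were higher in all ipsilateral libraries than in the contralateral libraries of the same genotype, while Slc39a14 stayed between 26.1 and 32.7 CPM in all 12.

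Mt1, a zinc buffer inducible in most cells, stood at 178, 178 and 152 CPM in cKO ipsilateral libraries 1 to 3, against 107, 109 and 105 CPM in cKO contralateral libraries 1 to 3. In wt cortex it stood at 130, 162 and 139 CPM on the ipsilateral side, against 103, 114 and 92.9 CPM on the contralateral side. All ipsilateral libraries lay above all contralateral libraries in each genotype, and the contralateral cKO libraries were the closest to each other. The log2 fold change, ipsilateral over contralateral, was 0.66 ± 0.09 (SE) in cKO cortex (adjusted p = 5.72e-04, edgeR). In wt cortex it was 0.48 ± 0.09 (adjusted p = 0.0096, edgeR). The wt call was lost without wt ipsilateral library 2, the highest of its group, where the log2 fold change was 0.38 and the adjusted p 0.0662. Over 24 alternatives its adjusted p ran from 1.42e-06 to 0.278.

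Mt2, the partner gene of Mt1 some kilobases away, stood at 113, 106 and 92.3 CPM in cKO ipsilateral libraries, against 64.3, 61.1 and 55.5 CPM in cKO contralateral libraries. The wt libraries stood at 70.1, 90.1 and 70.4 CPM on the ipsilateral side, against 55.2, 62.1 and 57.9 CPM on the contralateral side. The sides did not overlap in either genotype, but wt ipsilateral library 2 stood well above the other two of its group. The log2 fold change was 0.79 ± 0.10 in cKO cortex (adjusted p = 2.98e-04, edgeR), and this call held under all 24 alternatives tried, with adjusted p of at most 0.0295. In wt cortex it was 0.40 ± 0.10, with an adjusted p of 0.0549 in edgeR and of 0.0147 in DESeq2. Leaving out wt ipsilateral library 1 or cKO ipsilateral library 3 put it under the threshold (adjusted p = 0.0444 and 0.047, edgeR), and without wt ipsilateral library 2 the log2 fold change was 0.27 and the adjusted p 0.295. Over 24 alternatives its adjusted p ran from 6.19e-04 to 0.49. The antisense gene Gm45774 was itself at 5.12, 3.64 and 2.86 CPM in cKO ipsilateral and 1.35, 0.724 and 1.24 CPM in cKO contralateral libraries. As the counting's use of strand is not known, these values cannot give its part in the level of Mt2, which was not tested.

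Mt3, the brain metallothionein, stood at 126, 142 and 159 CPM in cKO ipsilateral libraries, against 109, 107 and 124 CPM in cKO contralateral libraries. In wt cortex it stood at 112, 140 and 137 CPM on the ipsilateral side, against 123, 127 and 105 CPM on the contralateral side. The cKO sides were separate by a small gap, and the wt sides overlapped. The log2 fold change was 0.33 ± 0.11 in cKO cortex (adjusted p = 0.167, edgeR) and 0.13 ± 0.11 in wt cortex (adjusted p = 0.633, edgeR). The highest level was that of the shallow cKO ipsilateral library 3, and without it the cKO log2 fold change was 0.24. The wt value was 0.05 when wt contralateral library 3 was left out. It was 0.07 and 0.23 when wt ipsilateral library 2 or 1 was left out. On the TPM scale the cKO sides overlapped as well, with 640, 628 and 846 TPM in ipsilateral and 594, 603 and 654 TPM in contralateral libraries.

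Slc30a1, the zinc exporter of the plasma membrane, stood at 34.4, 43.4 and 33.3 CPM in cKO ipsilateral libraries, against 29.3, 28.9 and 29.4 CPM in cKO contralateral libraries. The wt libraries stood at 42.2, 34.6 and 33.3 CPM on the ipsilateral side, against 24.5, 29.0 and 35.8 CPM on the contralateral side. The sides did not overlap in cKO cortex, and in wt cortex they did through contralateral library 3. The log2 fold change was 0.35 ± 0.14 in cKO (adjusted p = 0.253, edgeR) and 0.30 ± 0.13 in wt cortex (adjusted p = 0.311, edgeR). The wt value rested on single libraries, at 0.46 (adjusted p = 0.0536, edgeR) without wt contralateral library 3 and at 0.18 (adjusted p = 0.622, edgeR) without wt contralateral library 1. Over 24 alternatives its adjusted p ran from 0.0483 to 0.661. The cKO value was 0.22 without cKO ipsilateral library 2.

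Slc39a14, the importer, stood at 30.1, 29.7 and 27.6 CPM in cKO ipsilateral libraries, against 29.4, 32.3 and 28.8 CPM in cKO contralateral libraries. The wt libraries stood at 31.5, 29.6 and 30.3 CPM on the ipsilateral side, against 30.2, 26.1 and 32.7 CPM on the contralateral side. The sides overlapped in both genotypes. The log2 fold change was −0.04 in cKO cortex, with a 95% interval of −0.24 to 0.15, and 0.04 in wt cortex, with an interval of −0.15 to 0.23. By lack of overlap, 4 of 5 members had all cKO ipsilateral libraries above the contralateral ones, as had 10.8% of genes tested, and 2 of 5 in wt cortex, as had 10.5%.

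**Figure D2:**
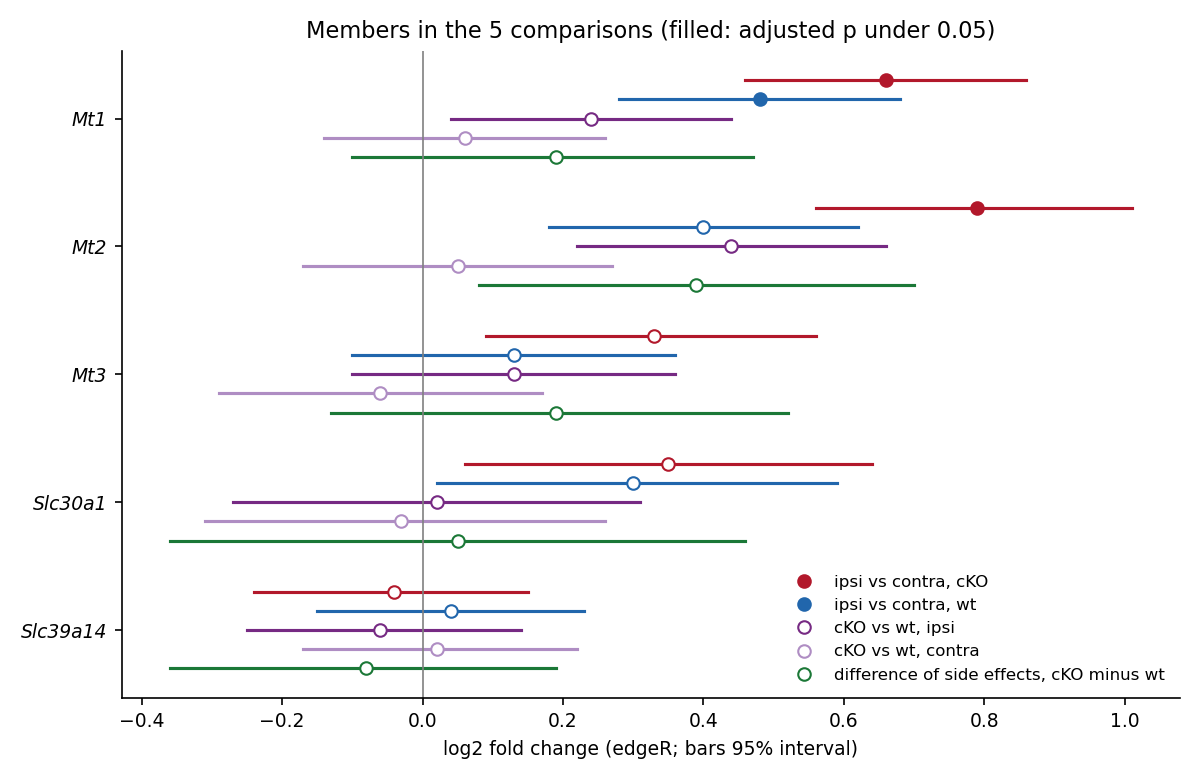
Log2 fold change of each member in the 5 comparisons (horizontal axis, bars are 95% intervals from edgeR; filled points have an adjusted p under 0.05). Filled points stand at 0.66 (Mt1, cKO), 0.79 (Mt2, cKO) and 0.48 (Mt1, wt), and the points for genotype in contralateral cortex lie between −0.06 and 0.06.

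The genotypes were compared directly on each side, which bears on whether STING deletion in Cx3cr1 lineage cells moved these genes. No member was called in either comparison, and neither was any other gene (0% of genes tested in each). At an unadjusted p under 0.05 edgeR listed 987 genes on the ipsilateral and 455 on the contralateral side, and DESeq2 called 10 and 3 genes. With no difference at all, a share near 0.05 of the 16836 genes tested would still fall under that unadjusted threshold. On the ipsilateral side Mt2 was the member furthest apart, with every cKO library above every wt library, from 92.3 CPM up in cKO and up to 90.1 CPM in wt. Such a separation was found for 1 of 5 members and for 5.6% of genes tested. The log2 fold change of Mt2, cKO over wt, was 0.44 ± 0.10 (unadjusted p = 7.53e-04, rank 19 of all genes, adjusted p = 0.577, edgeR).

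Mt1 gave 0.24 ± 0.09 on the ipsilateral side (unadjusted p = 0.0214, adjusted p = 0.758, edgeR), and its genotypes overlapped through cKO ipsilateral library 3 and wt ipsilateral library 2. Mt3, Slc30a1 and Slc39a14 gave 0.13, 0.02 and −0.06 there. In contralateral cortex no member was separate by genotype in this way, as 3.4% of genes were, and the 5 members lay between −0.06 and 0.06, all with an adjusted p of 1 in edgeR. The 95% interval of the contralateral difference ran from −0.14 to 0.26 for Mt1 and from −0.17 to 0.27 for Mt2. By mean level, Mt1 and Mt2 were ordered cKO ipsilateral (169 ± 15 and 104 ± 10.4 CPM, SD, n = 3), wt ipsilateral (144 ± 16.4 and 76.9 ± 11.5 CPM), cKO contralateral (107 ± 2.04 and 60.3 ± 4.48 CPM) and wt contralateral (103 ± 10.3 and 58.4 ± 3.48 CPM). Of the neighbours in this order, neither the ipsilateral nor the contralateral pair of groups differed past the threshold for Mt1 or Mt2, and the middle pair was not tested.

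The difference between the side effects of the genotypes was tested as an interaction, since a call in cKO and a miss in wt cortex show no difference by themselves. It gave 0.39 ± 0.15 for Mt2 (95% interval 0.08 to 0.70, unadjusted p = 0.0179, adjusted p = 1, edgeR) and 0.19 ± 0.13 for Mt1 (interval −0.10 to 0.47). Mt3, Slc30a1 and Slc39a14 gave 0.19, 0.05 and −0.08. No gene was called (0% of genes tested), with 381 genes at an unadjusted p under 0.05 in edgeR and 0 called by DESeq2. Here too a share near 0.05 of the 16836 genes tested would fall under that unadjusted threshold with no difference. Across 23 alternatives the value for Mt2 ran from 0.33 to 0.52, with adjusted p from 0.451 to 1.

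Mt1, Mt2 and Mt3 together held 2011 ± 144 TPM in cKO ipsilateral and 1508 ± 32.4 TPM in cKO contralateral cortex (SD, n = 3). They held 1569 ± 114 TPM in wt ipsilateral and 1489 ± 151 TPM in wt contralateral cortex. The cKO sums were separate by side, while the wt sums overlapped on the TPM scale. In CPM the sums were separate by side in both genotypes, at 415 ± 11.6 in cKO ipsilateral and 281 ± 4.09 in cKO contralateral cortex, and at 350 ± 40.1 in wt ipsilateral and 280 ± 23.6 in wt contralateral cortex. Mt3 supplied 35.0% ± 4.79 of the sum in cKO ipsilateral and 40.9% ± 2.92 in cKO contralateral libraries, and 37.8% ± 2.25 in wt ipsilateral and 42.8% ± 1.49 in wt contralateral libraries. Mt2 supplied 27.1% ± 2.53 in cKO ipsilateral and 23.4% ± 1.97 in cKO contralateral libraries, and 24.0% ± 1.55 in wt ipsilateral and 22.8% ± 1.70 in wt contralateral libraries. Mt1 supplied 37.9% ± 2.33 in cKO ipsilateral and 35.6% ± 1.18 in cKO contralateral libraries, and 38.2% ± 0.754 in wt ipsilateral and 34.4% ± 0.608 in wt contralateral libraries. Mt1 thus had the largest mean share on the injured side and Mt3 on the opposite side in each genotype, as values with no test. On the injured side the means of Mt1 and Mt3 differed by less than the SD of Mt3. In ipsilateral library 3 Mt3 stood above Mt1, at 40.2% against 35.2% in cKO and 40.4% against 37.3% in wt cortex.

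**Figure D3:**
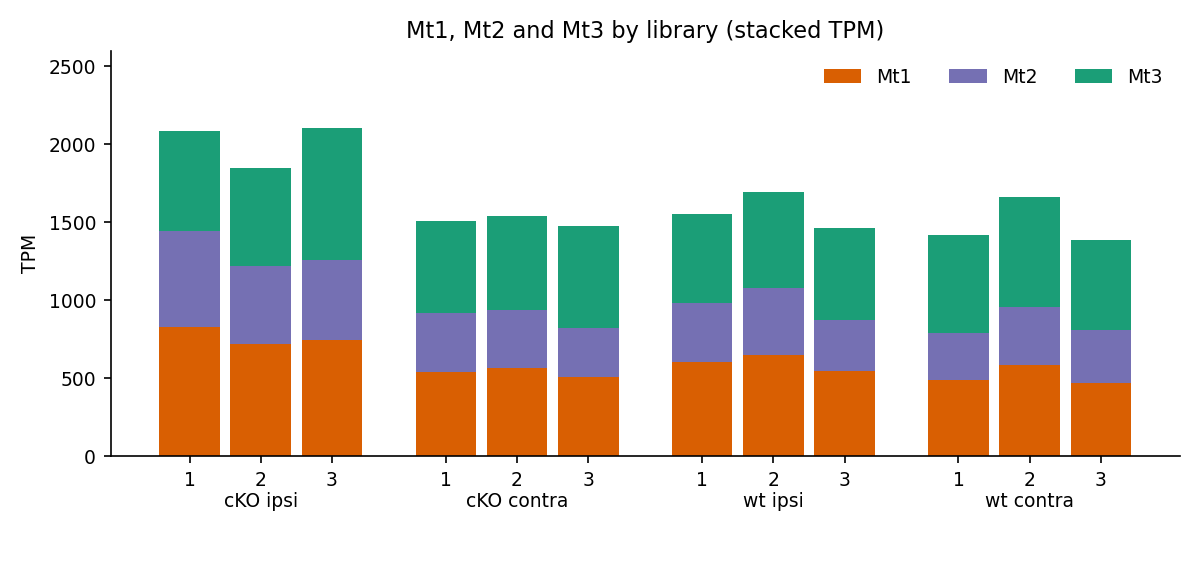
Stacked TPM of Mt1, Mt2 and Mt3 in each library (bars start at 0; libraries 1 to 3 of each group). The cKO ipsilateral sums run from 1845 to 2105 TPM and those of the other 9 libraries from 1384 to 1691 TPM.

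On the TPM scale the median of all genes shifted by −0.18 log2 between the wt sides, by −0.04 between the cKO sides and by 0.16 between genotypes on the ipsilateral side. Relative to that median, Mt1 was at 0.54 and Mt2 at 0.66 in cKO, and at 0.41 and 0.33 in wt cortex, ipsilateral over contralateral. Before that shift is taken off, limma on log2(TPM + 1) gave Mt1 0.50 in cKO (adjusted p = 0.0565) and 0.23 in wt cortex (adjusted p = 0.278), and Mt2 0.62 in cKO cortex (adjusted p = 0.0295). On that scale Mt2 was therefore the 1 member called, in cKO cortex. The direction of Mt3 in wt cortex turned with the scale, from 0.13 on counts to −0.10 on TPM and 0.08 relative to the median. Slc39a14 turned as well, from 0.04 on counts to −0.06 on TPM between the wt sides, and from −0.06 to 0.05 between genotypes on the ipsilateral side.

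Of the other zinc transporters, Slc39a12 alone passed the test on either side comparison. Of the 10 zinc exporters of the Slc30 family 9 were tested, and none was called on either side comparison, with a median log2 fold change of −0.12 in cKO and −0.02 in wt cortex. Slc30a1 had the highest log2 fold change of these in both genotypes, followed by Slc30a10, a manganese exporter, at 0.31 ± 0.14 in cKO (adjusted p = 0.324, edgeR) and 0.21 ± 0.13 in wt cortex. Slc30a3 (ZnT3), which fills synaptic vesicles with zinc in glutamatergic neurons, averaged 113 ± 11.7 CPM in cKO ipsilateral and 130 ± 10.1 CPM in cKO contralateral cortex (SD, n = 3). Its log2 fold change was −0.19 ± 0.09 in cKO (adjusted p = 0.366, edgeR) and −0.02 ± 0.09 in wt cortex. Slc30a9, the exporter with the most counts, gave −0.15 ± 0.06 in cKO (adjusted p = 0.314, edgeR) and −0.07 ± 0.06 in wt cortex. Slc30a8, the exporter of insulin granules, had a count of 0 throughout.

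Of the 14 importers of the Slc39 family 12 were tested, and 1 was called, Slc39a12 (ZIP12) in wt cortex. It stood at 58.2, 58.8 and 63.5 CPM in wt ipsilateral libraries, against 41.4, 41.7 and 50.5 CPM in wt contralateral libraries. In cKO cortex it stood at 46.3, 52.0 and 49.6 CPM on the ipsilateral side, against 43.6, 47.8 and 40.1 CPM on the contralateral side. The wt sides were separate, and the cKO sides overlapped. Its log2 fold change was 0.43 ± 0.09 in wt (adjusted p = 0.0162, edgeR) and 0.17 ± 0.09 in cKO cortex (adjusted p = 0.44, edgeR).

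The difference of these side effects of Slc39a12 was −0.27 ± 0.13 (adjusted p = 1, edgeR), and cKO over wt on the ipsilateral side gave −0.29 ± 0.09 (unadjusted p = 0.00764, adjusted p = 0.754, edgeR). The wt call did not hold without wt contralateral library 1 or 2 or wt ipsilateral library 2 or 3, where adjusted p ran from 0.0543 to 0.108. Over 24 alternatives it was called in 17, and on log2(TPM + 1) it stood at 0.21 (adjusted p = 0.377, limma), or 0.39 relative to the median of all genes. Slc39a10 and Slc39a7, the importers with the most counts, gave −0.14 and 0.01 in cKO and 0.03 and −0.06 in wt cortex. Mtf1, the zinc sensor that binds metal response elements, gave 0.17 ± 0.11 in cKO (adjusted p = 0.484, edgeR) and 0.09 ± 0.10 in wt cortex (adjusted p = 0.743, edgeR).

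**Figure D4:**
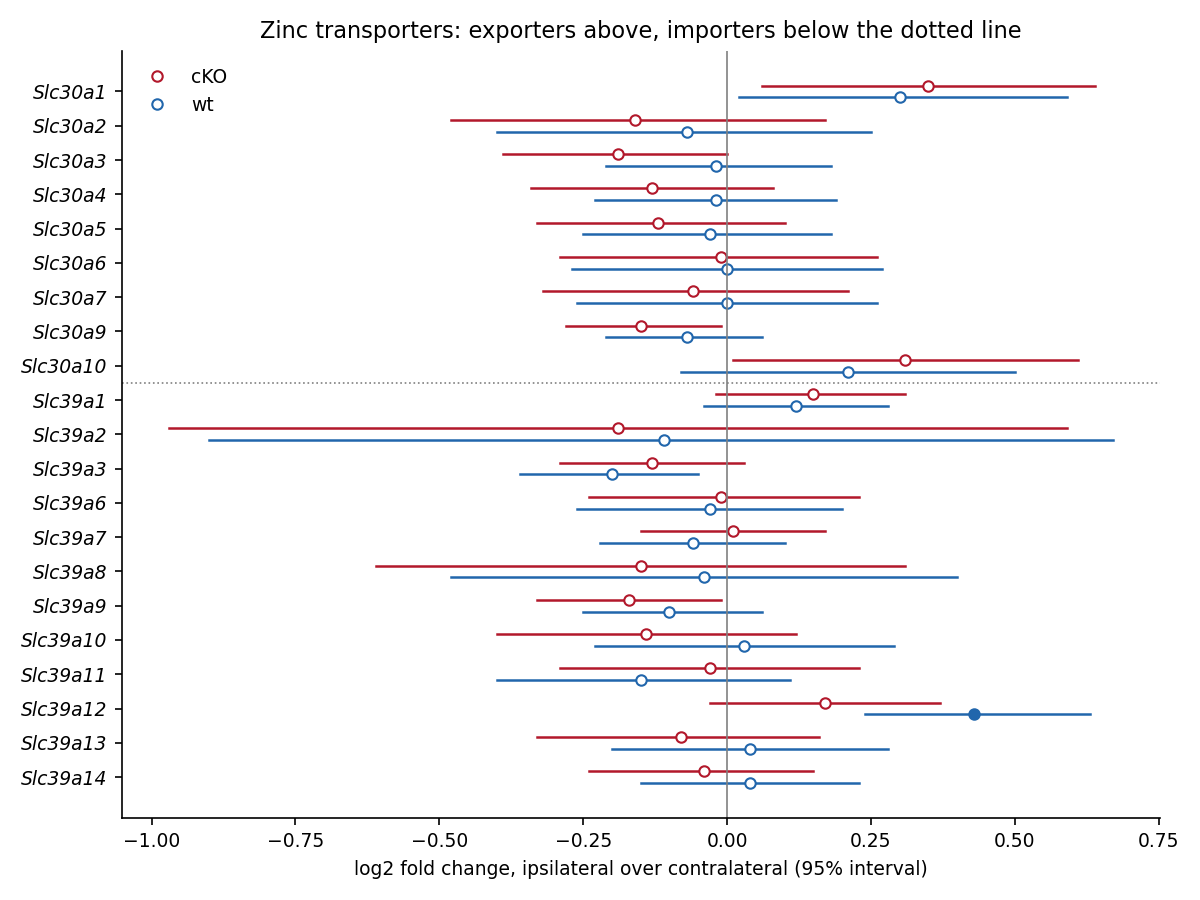
Log2 fold change, ipsilateral over contralateral, of the 21 tested zinc transporters in cKO and wt cortex (bars are 95% intervals from edgeR; filled points have an adjusted p under 0.05). The 1 filled point is Slc39a12 in wt cortex at 0.43.

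Markers of several cell types were counted beside Mt1 and Mt2. Of all genes tested, 2.56% were called higher and 0.178% lower in cKO, and 2.73% higher and 0.184% lower in wt cortex. Of 12 astrocyte markers 1 was called higher in cKO (Sox9) and 4 in wt cortex (Sox9, S100b, Slc4a4 and Fgfr3). Their summed level was 5404 to 5859 CPM in cKO ipsilateral and 4616 to 5039 CPM in cKO contralateral libraries, and 5693 to 6104 CPM in wt ipsilateral and 4617 to 5443 CPM in wt contralateral libraries. The sums were separate by side in both genotypes, and highest in a wt library, unlike Mt1 and Mt2. Their largest part was 1 gene, Slc1a2, at 2309 to 3288 CPM, so they do not stand for each marker. For cKO over wt on the ipsilateral side 8 of 12 astrocyte markers lay below 0 and 4 above. Gfap was among those above, as Mt1 and Mt2 were, at 0.40 ± 0.14 (unadjusted p = 0.014, adjusted p = 0.754, edgeR). Neutrophil markers, of which 10 of 14 were tested, were called higher for 10 genes in cKO and 9 in wt cortex. They summed to 25.9 to 57.3 CPM in cKO ipsilateral and 5.58 to 6.81 CPM in cKO contralateral libraries, and to 14.3 to 38.8 CPM in wt ipsilateral and 6.14 to 6.36 CPM in wt contralateral libraries. Ly6g and Mmp8 were at 0 in all contralateral libraries, and Camp in those of wt. Cxcr2, Retnlg, Trem1 and Clec4d held at most 2 counts in each contralateral library. Like Mmp8, they passed the filter on low counts only through ipsilateral libraries. So did S100a8, S100a9 and Il1r2, with at most 11, 8 and 11 counts in each contralateral library. Of the neutrophil markers tested, only Csf3r and Mmp9 had contralateral counts high enough to pass without the injured side. The filter thus favoured markers that are high on the injured side, so the number called higher was in part set by it.

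Erythroid markers, of which 7 of 10 were tested, were called higher for 5 genes in cKO and 3 in wt cortex. They summed to 823 to 1132 CPM in cKO ipsilateral and 208 to 282 CPM in cKO contralateral libraries, and to 804 to 2307 CPM in wt ipsilateral and 209 to 460 CPM in wt contralateral libraries. Within each genotype the library with the most neutrophil and erythroid marker RNA was ipsilateral library 2, and in wt cortex that library also had the highest Mt1 and Mt2. In cKO cortex Mt2 was highest in ipsilateral library 1 instead. Microglia markers summed to 377 to 465 CPM in cKO ipsilateral and 402 to 437 CPM in cKO contralateral libraries, and to 400 to 500 CPM in wt ipsilateral and 426 to 438 CPM in wt contralateral libraries, with 1 of 12, Tmem119, called lower in each genotype. 

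Of 12 neuron markers 11 had a log2 fold change, ipsilateral over contralateral, below 0 in cKO cortex, with Snap25 and Tubb3 called lower, and 10 in wt cortex, with Tubb3 called lower. They summed to 11590 to 12329 CPM in cKO ipsilateral and 12891 to 13679 CPM in cKO contralateral libraries, and to 12600 to 13937 CPM in wt ipsilateral and 12997 to 13876 CPM in wt contralateral libraries. Of 12 meningeal and fibroblast markers 11 were below 0 in each genotype, with medians of −0.41 in cKO and −0.40 in wt cortex, and 1 of them, Slc6a13, was called lower in wt cortex. Striatal markers, none of them called, had a median of 0.06 between the cKO sides, 0.35 between the wt sides (9 of 10 above 0) and −0.27 for cKO over wt on the ipsilateral side (8 of 10 below 0).

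Mitochondrial genes held 5.31% to 7.56% of counts in cKO ipsilateral and 4.27% to 4.77% in cKO contralateral libraries, and 6.91% to 8.16% in wt ipsilateral and 4.39% to 5.45% in wt contralateral libraries. This share was thus separate by side in both genotypes, as Mt1 and Mt2 were. The part of these cells and of the mitochondrial share in the values of Mt1 and Mt2 was not tested.

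Across libraries Mt1 and Mt2 followed each other (Pearson r = 0.96 over 12 libraries of log2 CPM, and 0.81 after group means were removed), as a description over libraries that share their group and depth. Mt3 followed them less, with r = 0.70 to Mt1 and 0.61 to Mt2, and 0.27 and −0.12 after group means were removed. Mt3 and Slc39a14 went opposite ways, with r = −0.60 and −0.74. Slc30a1 gave 0.58 to Mt1 and −0.26 after group means were removed.

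Among 14491 other genes, those most like Mt1 were Cebpd, a transcription factor of the acute-phase response (r = 0.97), the kinase gene Prkd2 (0.97) and S100a8, a neutrophil protein gene (0.96). Cebpd stood at 18.4, 20.9 and 13.8 CPM in cKO ipsilateral, 5.84, 8.14 and 5 CPM in cKO contralateral, 10.9, 15.8 and 11.4 CPM in wt ipsilateral and 5.94, 5.53 and 4.49 CPM in wt contralateral libraries. Like Mt1, it was separate by side in both genotypes, with the largest wt value in ipsilateral library 2. Those most like Mt2 were Hdc, which makes histamine, Hmox1, which degrades heme, and Cdkn1a, a cell cycle inhibitor (r = 0.94 each). After group means were removed r with Mt1 was 0.77 for Cebpd, 0.91 for Prkd2 and 0.73 for S100a8. With Mt2 it was then 0.73 for Hdc, 0.72 for Hmox1 and 0.58 for Cdkn1a.

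Mt3 had another kind of neighbour, the ribosomal protein genes Rps29 (r = 0.97), Rpl37 (0.96) and Rpl38 (0.96), with 0.96, 0.94 and 0.93 after group means were removed. Rps29 stood at 161, 185 and 240 CPM in cKO ipsilateral and 121, 122 and 138 CPM in cKO contralateral libraries, the highest again in cKO ipsilateral library 3. Slc30a1 was most like G2e3 (0.95), the splicing factor gene Sf3b1 (0.95) and the chromatin remodeller gene Chd1 (0.94). Slc39a14 was most like Lifr (0.92), the receptor of leukaemia inhibitory factor, Tmem209 (0.88) and Ocel1 (0.86). After group means were removed the values for both transporters were 0.88 to 0.97. These genes were picked for their r over the same libraries, and the group means of both transporters differ little, so the second set of values is no separate check.

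**Figure D5:**
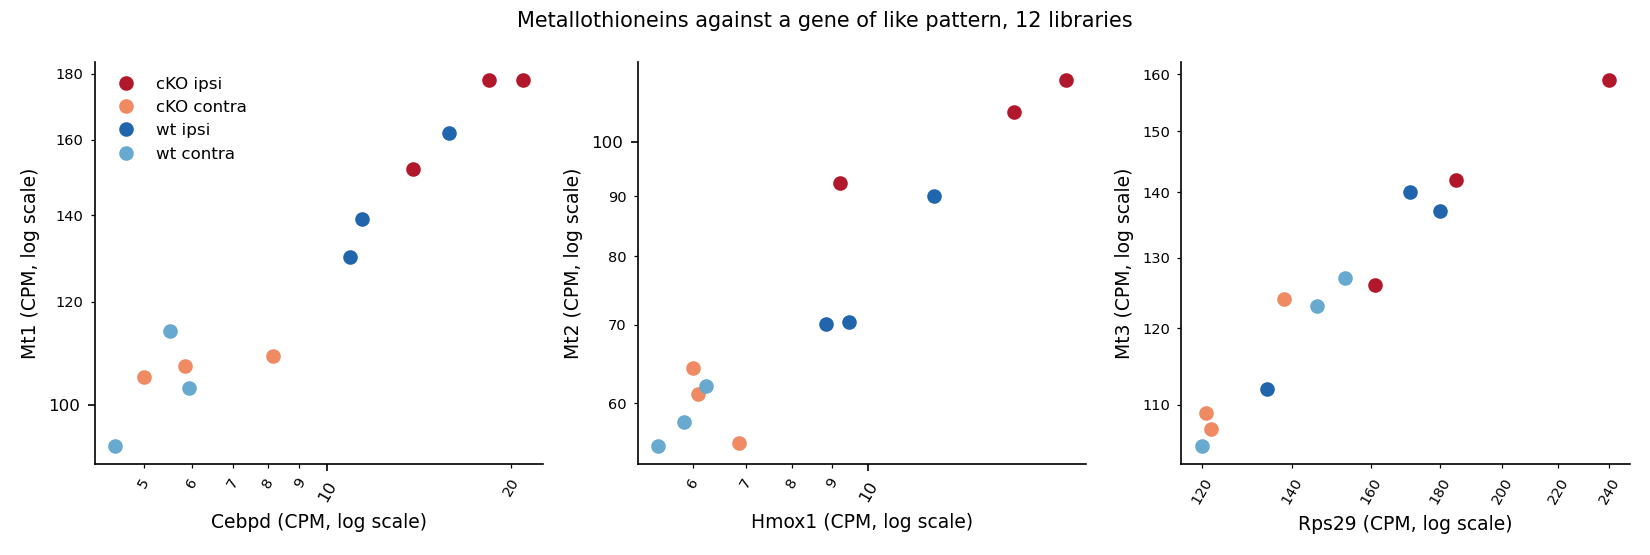
Level (CPM, both axes log scaled) of Mt1 against Cebpd, Mt2 against Hmox1 and Mt3 against Rps29; each point is 1 of 12 libraries, coloured by group. Ipsilateral points of Mt1 and Mt2 lie above and to the right of contralateral ones, while for Mt3 the groups mix and cKO ipsilateral library 3 is at the far end, at 240 CPM of Rps29.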

How the data were processed

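Cortical RNA of 12 mouse libraries was sequenced after a stranded mRNA kit, per the labels' protocols. The tools named are Trim Galore 0.6.4, STAR 2.7.1a, RSEM 1.2.28 and DESeq2 1.36.0, with mm10 as build, per the submitters' processing notes. The annotation and the strand setting are not given in the sources used here. The authors deposited RSEM estimated counts as whole numbers per gene, and TPM, which the authors deposited beside them, is scaled by gene length to a fixed total per library. RSEM shares reads among similar genes, so paralogs such as Mt1 and Mt2 can exchange reads.

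Gene IDs were matched to GENCODE M21 (55227 of 55487, 99.5%). Counts were filtered with edgeR's filterByExpr (minimum count 10, total 15), which kept 16836 genes and removed 38651. After TMM scaling (trimmed mean of M values), edgeR 4.0.16 (R 4.3.3) fitted its quasi-likelihood model to all 4 groups, with Benjamini-Hochberg adjustment and a threshold of 0.05. Log2 CPM used a prior count of 2. A floor of 3 counts covers counting error only. Alternatives were other scalings and filters, DESeq2 1.42.0, limma 3.58.1 on log2(TPM + 1) and log2(TPM + 0.1) for genes of at least 1 mean TPM, each library left out, the compared groups alone, and replicate blocks. Fits without cKO ipsilateral 3 and wt contralateral 3, and with GC and length trends removed, were added after the data were seen. The code was tested on simulated counts.

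The members, taken by symbol and not by a threshold on values, and the gene lists were chosen with earlier results of these data known. Besides the 5 members, the text names up to 4 called genes per list by adjusted p, otherwise the 2 of highest mean CPM, and per member the 3 genes of highest r among those of at least 1 mean CPM. Slc30a10, Slc30a8, Mtf1, Mt4, Ftl1, Bc1, the antisense genes and the markers were named after their values were seen.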

Additional observations from a re-analysis of the deposited data

How the results depend on the processing

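The rise of Mt2 in cKO cortex was called under all 24 alternatives (log2 fold change 0.62 to 0.86) and that of Mt1 in cKO under 22, except limma on log2(TPM + 1) and log2(TPM + 0.1) (0.50 each, adjusted p = 0.0565 and 0.0552). Mt1 in wt was called under 21 of 24: it was lost under both limma fits (0.23 each, adjusted p = 0.278 and 0.275) and in 1 fit that left out a library, over which it ran from 0.38 to 0.55. Mt2 in wt, 0.40 and not called, was called with no filter (0.40, adjusted p = 6.19e-04) and with DESeq2 (0.39, adjusted p = 0.0147), and ran from 0.27 to 0.47 with libraries left out. Mt2 between genotypes on the ipsilateral side was called only with no filter (0.43, adjusted p = 6.90e-04). With no filter Mt3 and Slc30a1 in cKO were called as well (adjusted p = 0.00535 and 0.0244). Slc30a1 in wt was called without cKO ipsilateral 3 and wt contralateral 3 together (0.46, adjusted p = 0.0483). The causes of these changes were not tested.

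Called genes numbered 461 in the cKO and 491 in the wt side comparison, and 0 in both genotype comparisons and the interaction. They were 968, 991, 223, 96 and 72 with no filter, 661, 766, 10, 3 and 0 with DESeq2, 174, 139, 1, 0 and 1 with limma on log2(TPM + 1), and 170, 138, 1, 0 and 1 with log2(TPM + 0.1). With GC and length trends removed they were 793 (451 higher, 342 lower) in cKO and 803 (488 higher, 315 lower) in wt, against 431 higher and 30 lower in cKO and 460 higher and 31 lower in wt as reported. DESeq2 gave 613 higher and 153 lower in wt. Without both libraries that stood apart 968 were called in wt. With 1 library left out the count ran from 277 (without cKO ipsilateral 2; 280 without cKO contralateral 1) to 579 in cKO. In wt it ran from 250 (without wt contralateral 2; 281 and 310 without wt ipsilateral 2 and 3) to 861 (without wt contralateral 3), and from 0 to 2 between genotypes on the contralateral side (2 without cKO contralateral 3, 1 without wt contralateral 2).

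The replicate block on the number shared by all groups called 490 genes in cKO and 501 in wt, and Mt2 in wt at 0.39 (adjusted p = 0.0339); the block within genotype called 533 and 567, and Mt2 in wt at 0.39 (adjusted p = 0.00974). The blocks changed no other member's call. The labels do not tie the numbers to animals, and deviations of same-numbered sides correlated at 0.0568 to 0.092 in cKO and −0.002 to 0.0941 in wt, under 0.1 throughout. Of 3 ipsilateral libraries, 3 in cKO and 2 in wt matched best with their own number. The shallowest library, cKO ipsilateral 3, held 222 to 1280 counts per member, which limits its precision most for the transporters. Shares from summed CPM gave Mt1 40.7%, 38.2%, 41.0% and 36.8% in cKO ipsilateral, cKO contralateral, wt ipsilateral and wt contralateral cortex.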

Other observations

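Of 18 copper and iron genes 17 were tested, and 1 was called in cKO and 2 in wt cortex. Of all genes tested 2.74% were called in cKO and 2.92% in wt cortex. Hmox1 was called higher in cKO (log2 fold change 1.21 ± 0.19, adjusted p = 0.00112, edgeR) and in wt cortex (0.80 ± 0.19, adjusted p = 0.0303, edgeR). Fth1, the heavy chain of the iron store ferritin, was called in wt cortex (0.36 ± 0.08, adjusted p = 0.0249, edgeR) and gave 0.28 ± 0.08 in cKO cortex (adjusted p = 0.0996, edgeR). The light chain Ftl1 gave 0.34 ± 0.09 in cKO and 0.33 ± 0.09 in wt cortex (adjusted p = 0.0636 and 0.0719, edgeR). The median of the 17 genes was 0.05 in cKO and 0.06 in wt cortex, near that of all genes.

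Lists for the cytokine and hormone inputs known for Mt1 and Mt2 were counted in the same way. These lists were chosen with earlier results of these data known. Of 17 interleukin-6 family and STAT3 genes 11 were called higher in cKO and 10 in wt cortex, with medians of 1.51 and 1.25. Of all genes tested 2.56% and 2.73% were called higher, with a median of −0.01 in both. Il6 and Osm, with at most 2 and 7 counts in each contralateral library, passed the filter on low counts only through ipsilateral libraries. Lif and Bcl3, with at most 29 and 14 counts, reached the filter's level in too few contralateral libraries and also depended on ipsilateral ones. The filter thus favoured genes that are high on the injured side, so the number called higher was in part set by it. Socs3, a feedback inhibitor of the pathway, gave 2.91 ± 0.16 in cKO and 2.48 ± 0.15 in wt cortex (adjusted p = 2.64e-08 and 1.17e-07, edgeR). Of 16 glucocorticoid targets 6 were called higher in cKO, and 5 higher and 1 lower in wt cortex. Their medians were 0.42 in cKO and 0.19 in wt cortex, and 5 in cKO and 6 in wt cortex had a log2 fold change below 0. Dusp1 and Per1, which other inputs induce as well, gave 1.26 ± 0.12 and 0.71 ± 0.08 in cKO and 1.25 ± 0.12 and 0.72 ± 0.08 in wt cortex. The 1 called lower, Fkbp5, gave −0.62 ± 0.15 in wt (adjusted p = 0.0349, edgeR) and −0.40 ± 0.15 in cKO cortex (adjusted p = 0.212, edgeR).

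Between genotypes, cKO over wt, the 16 glucocorticoid targets had a median of 0.25 on the ipsilateral and 0.17 on the contralateral side, with 14 and 13 of them above 0 and none called. Fkbp5, named here after its values were seen, stood at 42.3 ± 6.56 CPM in cKO ipsilateral and 26.6 ± 2.18 CPM in wt ipsilateral cortex, and, on the contralateral side, at 56.4 ± 10.1 CPM in cKO and 40.8 ± 6.64 CPM in wt cortex (SD, n = 3). Its ipsilateral log2 fold change was 0.68 ± 0.15 (unadjusted p = 4.07e-04, adjusted p = 0.577, edgeR). Sgk1 and Per1, the targets with the highest mean CPM, gave 0.10 ± 0.15 and −0.08 ± 0.08 on the ipsilateral side. On the contralateral side they gave 0.01 ± 0.15 and −0.07 ± 0.08.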
